A study of Mus musculus with 2 samples.

Results

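The loci described here are 9 mouse microRNA genes that are enriched in neurons: Mir137, Mir153, Mir149, Mir128-1, Mir128-2, Mir218-1, Mir218-2, Mir138-1 and Mir138-2. They were chosen by name and not by a rule on their level, but with earlier results of these data known. All 9 have a row in the deposited tables of 1973 microRNA loci. Small RNA under 30 nucleotides had been sequenced from hindbrain of mouse embryos, strain B6NCrl, at 14.5 days. There is 1 group with 2 biological replicates, collected on 24 July 2014 (replicate 1) and 30 July 2014 (replicate 2). No treatment or mutation is given in the labels. The labels call each sample the hindbrain of 1 pup in one field and a male and female pool in another, and give the same donor for both. Thus n and SD describe the spread of these 2 libraries, which may be technical. The p-values of the binomial test below are set against counting error and hold no estimate of that spread. Counts on microRNA loci came to 5826676 in replicate 1 and 6667238 in replicate 2.

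MicroRNAs are cut from hairpin transcripts, and either side of the hairpin (the 5p and the 3p arm) can yield a mature strand of about the length of a small RNA read. The seed, bases 2 to 8 of the mature strand, pairs with target messenger RNAs and lowers their output. In the embryonic hindbrain, which forms cerebellum, pons and medulla, neurons leave the cell cycle while progenitors still divide, and miR-218 is well known from motor neurons. miR-137 is known for acting in neuronal differentiation and at synapses, miR-128 for tuning neuronal excitability, miR-153 for vesicle release and miR-138 for the size of dendritic spines. miR-149 comes from the gene of glypican 1, a cell surface proteoglycan.

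The mature strand usually described as the active one of each microRNA is shown because it decides which loci can be told apart. Sequences are from RefSeq (GRCm38.p6), in which all 9 hairpins were matched. They run 5′ to 3′, and capitals mark the seed.
mmu-miR-137-3p: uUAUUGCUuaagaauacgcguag
mmu-miR-153-3p: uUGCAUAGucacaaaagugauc
mmu-miR-149-5p: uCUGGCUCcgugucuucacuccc
mmu-miR-128-3p: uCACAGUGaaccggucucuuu
mmu-miR-218-5p: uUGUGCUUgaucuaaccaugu
mmu-miR-138-5p: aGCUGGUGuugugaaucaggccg
These 6 strands carry 6 different seeds. The first 3 strands are each encoded by 1 hairpin. The other 3 are each encoded, without a difference, by 2 hairpins on different chromosomes. Over both arms, the 9 hairpins hold 15 distinct mature strands with 14 distinct seeds, so the seed groups are mostly those of the copies themselves.

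The copies of a pair differ outside the common strand. The 6 hairpins are printed to show how far the identity runs, with the longest run shared by both copies in capitals.
Mir128-1: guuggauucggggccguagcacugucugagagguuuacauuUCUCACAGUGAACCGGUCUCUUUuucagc
Mir128-2: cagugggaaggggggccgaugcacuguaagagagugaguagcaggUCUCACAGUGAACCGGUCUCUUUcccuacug
Mir218-1: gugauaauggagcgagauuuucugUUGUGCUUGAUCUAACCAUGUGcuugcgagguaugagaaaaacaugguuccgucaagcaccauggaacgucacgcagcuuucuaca
Mir218-2: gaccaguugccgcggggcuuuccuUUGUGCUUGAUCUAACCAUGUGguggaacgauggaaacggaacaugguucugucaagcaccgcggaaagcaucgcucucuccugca
Mir138-1: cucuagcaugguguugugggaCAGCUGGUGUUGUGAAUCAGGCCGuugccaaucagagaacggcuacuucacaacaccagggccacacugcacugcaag
Mir138-2: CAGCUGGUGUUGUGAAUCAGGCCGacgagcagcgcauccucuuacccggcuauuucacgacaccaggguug
The shared run was 23 bases in the Mir128 pair, 22 in the Mir218 pair and 24 in the Mir138 pair, and the next longest run was 7, 10 and 10 bases. A read that starts at the first base of the common strand differs between the copies once it runs 1 base past the strand's annotated 3′ end in the Mir128 and Mir138 pairs, and 2 bases past it in the Mir218 pair. The other arm of each hairpin is specific to its copy.

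**Figure D1:**
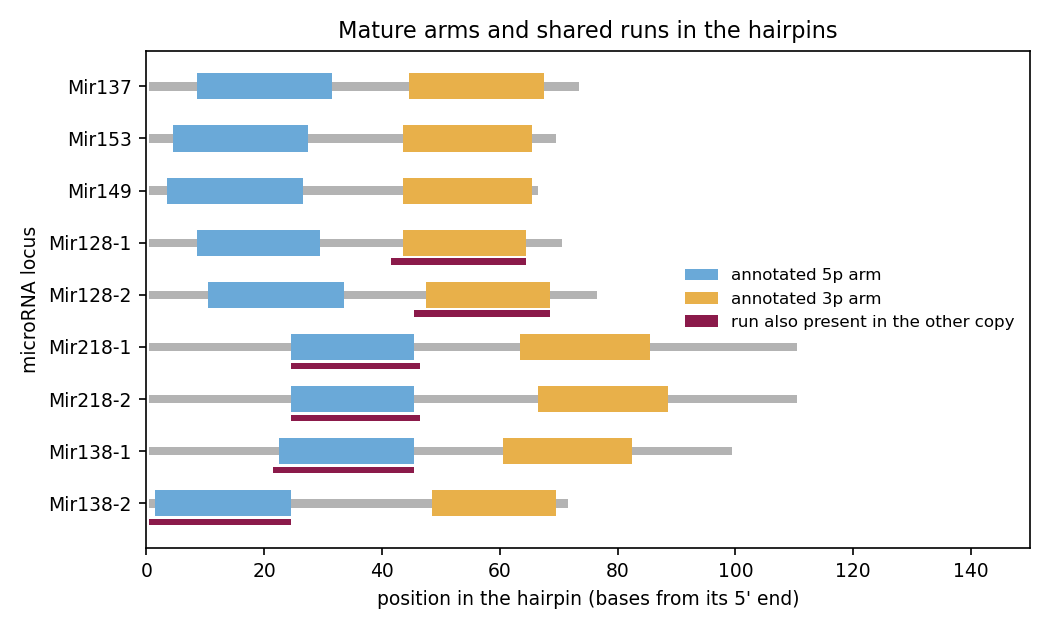
Annotated mature arms along each hairpin, in bases from its 5′ end, with the run of bases that the other copy of a pair also holds drawn below. Mir137, Mir153 and Mir149 have no such run, and in each pair the run lies over 1 arm only.

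Windows of 22 bases, the length of a typical mature strand, were compared with every other of the 1005 hairpins of the RefSeq table on both strands. All 52 windows of Mir137, all 48 of Mir153 and all 45 of Mir149 were unique among these hairpins. The rest of the genome, and microRNA loci without an entry in the RefSeq table, were not searched. In the pairs, 2 of 49 windows of Mir128-1 and 2 of 55 of Mir128-2, 1 of 89 in each Mir218 hairpin, and 3 of 78 windows of Mir138-1 and 3 of 50 of Mir138-2 occurred in another hairpin. The authors' tables keep reads that map to several places in a row of their own, which held 33.9% (replicate 1) and 34.3% (replicate 2) of the reads, and assign them to no locus. Reads confined to a common strand of miR-128, miR-218 or miR-138 can therefore be missing from the levels of these 6 loci. How many are missing was not tested, and the tables do not say which arm a read came from.

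The 5p arms of the Mir128 copies differ in sequence but share a seed, as their sequences show, with the seed in capitals.
mmu-miR-128-1-5p: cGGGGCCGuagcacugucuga
mmu-miR-128-2-5p: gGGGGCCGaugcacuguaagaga
Aligned over their overlap, 16 bases of these 2 arms were identical and 5 differed. The 3p arms of the Mir218 copies matched at 18 aligned bases and differed at 1, and those of the Mir138 copies matched at 18 and differed at 2. In both cases the annotated ends are offset and the seeds differ. Outside the 9 loci, the seed of miR-218-5p was also found in miR-7002-3p, whose locus Mir7002 had 1 count in each library. The seed of miR-149-3p was found in miR-7016-5p and miR-1943-5p, whose loci had 6 and 10 counts (Mir7016) and 7 and 14 counts (Mir1943) in replicates 1 and 2. It was also found in miR-6967-5p, whose 2 loci, Gm27775 and Gm27740, had 0 counts in both libraries. The seed of miR-218-1-3p was found in miR-496b, whose locus Mir496b had 0 counts in both libraries.

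Of the 9 loci, 6 lay in introns of protein-coding genes, on the strand of the host (GENCODE M21, GRCm38). Mir218-1 (chr5:48223942-48224051) lay in intron 16 of Slit2 and Mir218-2 (chr11:35616816-35616925) in intron 14 of Slit3, genes for secreted axon guidance proteins. Mir153 (chr12:117250817-117250885) lay in intron 19 of Ptprn2, a protein of neuroendocrine secretory vesicles, and on the other strand of that region runs an intron of the antisense gene Gm5441. Mir128-1 (chr1:128202361-128202430) lay in intron 19 of R3hdm1, and Mir128-2 (chr9:112118636-112118711, minus strand) in intron 19 of Arpp21, a phosphoprotein regulated by cyclic AMP. Mir149 (chr1:92850378-92850443) lay in intron 1 of Gpc1. Intron numbers refer to the annotated transcript with the most exons.

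The other 3 loci overlapped exons of non-coding genes. Mir137 (chr3:118433857-118433929) overlapped an exon in 3 of the 6 transcripts of Gm26871, Mir138-1 (chr9:122682876-122682974) an exon in 1 of 2 transcripts of the transcribed pseudogene Gm47135, and Mir138-2 (chr8:94324311-94324381) the exon of the long non-coding RNA C78859. Apart from Mir128-2, all lay on the plus strand. The closest locus to Mir137, Gm24155 at 792 bases, had 0 counts in both libraries, and for each of the other 8 the closest microRNA locus lay at least 165471 bases away. All 9 had 0 counts on the opposite strand in both libraries, as did 363 of the 401 loci that reached 10 counts in both. With CPM as the count per 1000000 counts on microRNA loci, a locus at 0 may have a level of up to 0.515 CPM in the first library and 0.450 CPM in the second.

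Together the 9 loci held 2.93% of microRNA counts in replicate 1, with a 95% Clopper-Pearson interval of 2.92 to 2.94. In replicate 2 they held 3.35%, with an interval of 3.33 to 3.36. Such intervals are computed from read counts and reflect counting error alone, with no spread between libraries. Reads were counted without molecular identifiers, so duplicates of 1 molecule count as separate reads and the intervals may be too narrow. Mir149 and Mir137 carried most of this, 78.0% of the counts of the 9 loci in replicate 1 and 77.7% in replicate 2. The 6 loci of the pairs carried 15.3% and 14.6%. The highest and the lowest locus lay 421-fold apart in mean level, so the 9 do not form a group of like level.

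Levels are given as CPM and not divided by length, since a read of this size class spans a mature strand. Mir149, in the glypican gene, was the highest of the 9, with 13165 CPM in the first and 15366 CPM in the second replicate (14266 ± 1557, SD, n = 2). It ranked 14th and 13th among all loci in the 2 libraries. Mir137 had 9697 and 10645 CPM (10171 ± 671, SD, n = 2) and ranked 18th and 17th. Mir149 was 1.36-fold and 1.44-fold above Mir137 in replicates 1 and 2, and their libraries did not overlap. Mir153, the vesicle release microRNA, had 1965 and 2553 CPM (2259 ± 416, SD, n = 2). That was 4.93-fold and 4.17-fold below Mir137 in the same libraries.

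Among the pairs, Mir128-1 was highest with levels of 1661 and 1900.2 CPM in replicates 1 and 2 (1781 ± 169, SD, n = 2). Its copy Mir128-2 had 972 and 1144 CPM (1058 ± 121, SD, n = 2). Both loci of miR-128, the excitability microRNA, were thus higher in replicate 2 than in replicate 1. Mir138-1 had 1052 and 1076 CPM (1064 ± 16.6, SD, n = 2), and Mir138-2 had 533 and 571 CPM (552 ± 26.5, SD, n = 2). Of the 7 loci with over 500 CPM, these of the dendritic spine microRNA had log2 ratios between the libraries closest to 0.

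The 2 loci in Slit genes were the lowest of the 9. Mir218-2 had 216 and 174 CPM in replicates 1 and 2 (195 ± 29.7, SD, n = 2), and Mir218-1 had 34.0 and 33.7 CPM (33.9 ± 0.166, SD, n = 2). The intervals of Mir218-1 were 29.4 to 39.1 CPM and 29.5 to 38.5 CPM, from 198 and 225 counts, and each was wider than its SD. Mir218-1 was the only locus of the 9 under 130 CPM, the median of those 401 loci, and the other 8 lay above it. Since miR-218-5p is common to both hairpins, these values do not give its level in the tissue.

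**Figure D2:**
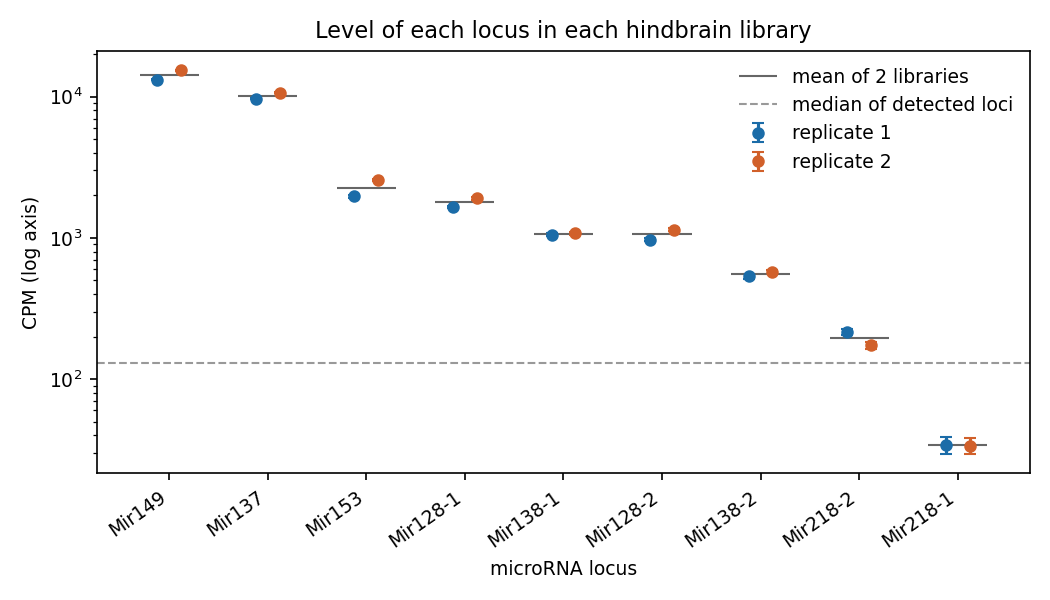
CPM of each locus (log axis) in replicate 1 (blue) and replicate 2 (orange) with exact 95% intervals, grey bars for the mean and a dashed line at the median of detected loci, 130 CPM. Mir149 and Mir137 are highest, at 14266 and 10171 CPM on average, and Mir218-1 alone lies below the dashed line.

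In descending order of mean level the loci were Mir149, Mir137, Mir153, Mir128-1, Mir138-1, Mir128-2, Mir138-2, Mir218-2 and Mir218-1. Neighbours in this order had libraries that did not overlap, with the exception of Mir138-1 and Mir128-2. These 2 had a ratio of 1.08 in replicate 1 and 0.940 in replicate 2 and could not be ordered. The 3 loci without a copy took the 3 highest places, and all 6 loci with a copy ranked below them. The part of unassigned reads in that order was not tested.

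For each locus, the others nearest in level were found by the Euclidean distance of log2(CPM + 1) over the 2 libraries. The nearest to Mir137 were Mir26b (10866 CPM, distance 0.18) and Mir135b (9319 CPM, 0.19), and those to Mir149 were Mir181c (12600.1 CPM, 0.27) and Mir17 (14345 CPM, 0.33). Those of Mir153 were Mir107 (2368 CPM, 0.25) and Mir125b-2 (2085 CPM, 0.26), which has an arm that another hairpin also encodes. Those of Mir128-1 were Mir467d (1763 CPM, 0.04) and Mir433 (1826 CPM, 0.06), and Mir128-2 was nearest to Mir300 (1113 CPM, 0.12) and then to its fellow Mir138-1 (0.14). Mir138-1 in turn was nearest to Mir425 (1043 CPM, 0.05) and Mir188 (1098 CPM, 0.07), and Mir138-2 to Mir376c (564 CPM, 0.05) and Mir351 (526 CPM, 0.10). Mir218-2 was nearest to Mir483 (204 CPM, 0.10) and Mir20b (198 CPM, 0.13), and Mir218-1 to Mir5099 (34.8 CPM, 0.07) and Mir490 (34.5 CPM, 0.12). With 2 libraries of 1 group, this likeness is one of level.

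Within a pair, the ratio of the copies needs no scaling between libraries. Mir128-1 had 1.71 times the counts of Mir128-2 in replicate 1 (exact 95% interval 1.65 to 1.77) and 1.66 times in replicate 2 (1.61 to 1.71). Mir138-1 had 1.97 times the counts of Mir138-2 in replicate 1 (1.89 to 2.06) and 1.89 times in replicate 2 (1.81 to 1.96). Mir218-1 had 0.158 times the counts of Mir218-2 in replicate 1 (0.135 to 0.183) and 0.194 times in replicate 2 (0.168 to 0.224). In both libraries the same copy of each pair thus led, the one in R3hdm1 over the one in Arpp21, the one on chromosome 9 over the one on chromosome 8, and the one in Slit3 over the one in Slit2.

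**Figure D3:**
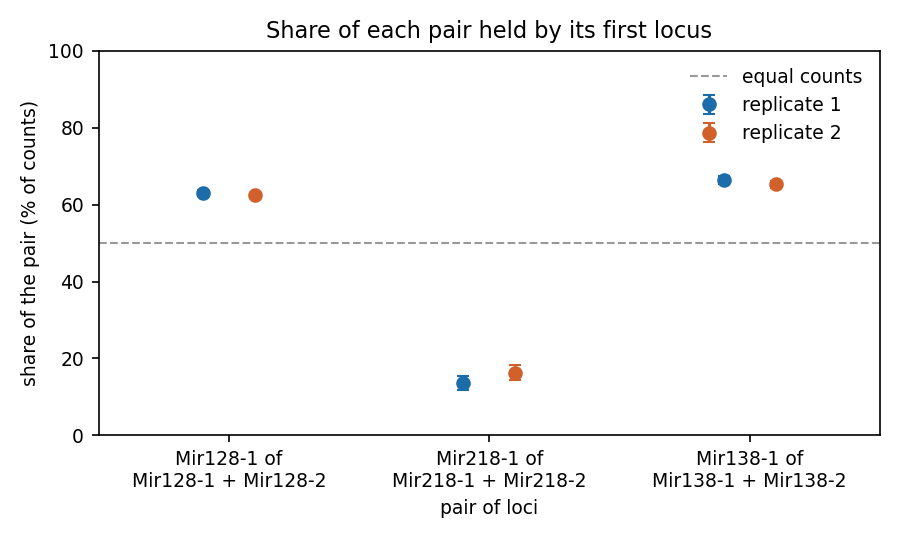
Percentage of each pair's counts on its first locus in replicate 1 (blue) and replicate 2 (orange) with exact 95% intervals, and a dashed line at equal counts. Mir128-1 and Mir138-1 hold over 60% of their pairs, and Mir218-1 holds 13.6% and 16.3%.

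The ratio of the copies was then compared between the libraries. In replicate 2 over replicate 1 it was 0.972 for Mir128-1 to Mir128-2 (exact conditional 95% interval 0.931 to 1.02), 0.955 for the Mir138 pair (0.901 to 1.01) and 1.23 for the Mir218 pair (0.998 to 1.53). Each interval held 1. This comparison was chosen after the values were seen and is given as intervals of counting error only. A pair's ratio counts the reads that could be told apart, so it is not a ratio of transcripts of the host genes.

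The second question the design allows is how far the 2 libraries differ at these loci. Log2 ratios are of replicate 2 over replicate 1 after TMM scaling, with 0.5 added to each count, and each was tested against counting error with an exact two-sided binomial test, adjusted by Benjamini-Hochberg over the 498 loci whose counts summed to 10 or more. Of the 9 loci, 5 were higher in replicate 2, 1 was lower and 3 did not pass. Over all tested loci, the test called 32.5%, with 17.5% higher and 15.1% lower. With only the 311 loci tested that totalled 100 counts or more, all 9 among them, 85 were called higher and 79 lower. The share called was thus larger without the loci of few counts, and 32.5% is not a rate for loci with counts like the 9. Whether the 9 differ from loci of like level in this was not tested. The median log2 ratio was 0.09 over the 9 loci, 0.01 over all tested loci and 0.02 over those 311. The test compares these 2 libraries, not conditions, and collection day cannot be told apart from replicate.

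Mir153 had the largest rise of the 9, from 11449 to 17019 counts (log2 ratio 0.33, exact 95% interval 0.30 to 0.37, adjusted p = 5.95e-82 in the exact binomial test). Mir149 rose from 76708 to 102451 counts (0.18, interval 0.17 to 0.19, adjusted p = 1.13e-150), and Mir137 from 56499 to 70973 (0.09, interval 0.08 to 0.11, adjusted p = 1.07e-28). Both copies of Mir128 rose, by a log2 ratio of 0.15 (0.11 to 0.19) for Mir128-1 and 0.19 (0.14 to 0.24) for Mir128-2. The 5 that rose are all 3 loci without a copy and the Mir128 pair. As folds these are small, 1.07 for Mir137 to 1.26 for Mir153.

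Mir218-2 was the 1 locus that fell, from 1257 to 1158 counts in the larger library (log2 ratio -0.36, exact 95% interval -0.47 to -0.24, adjusted p = 1.08e-08 in the exact binomial test). Mir218-1 had a log2 ratio of -0.05 (-0.33 to 0.23) and did not pass. The intervals of the 2 copies overlapped, and the ratio of the copies given above, 1.23 (0.998 to 1.53), does not show that they moved differently. Mir138-1 and Mir138-2 had log2 ratios of -0.01 (-0.06 to 0.04) and 0.06 (-0.01 to 0.12) and did not pass. With library totals in place of TMM, which puts log2 ratios 0.04 higher, Mir138-1 turned to 0.03, Mir138-2 passed the test with 0.10, and the calls over all loci were 114 higher and 59 lower instead of 87 and 75.

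**Figure D4:**
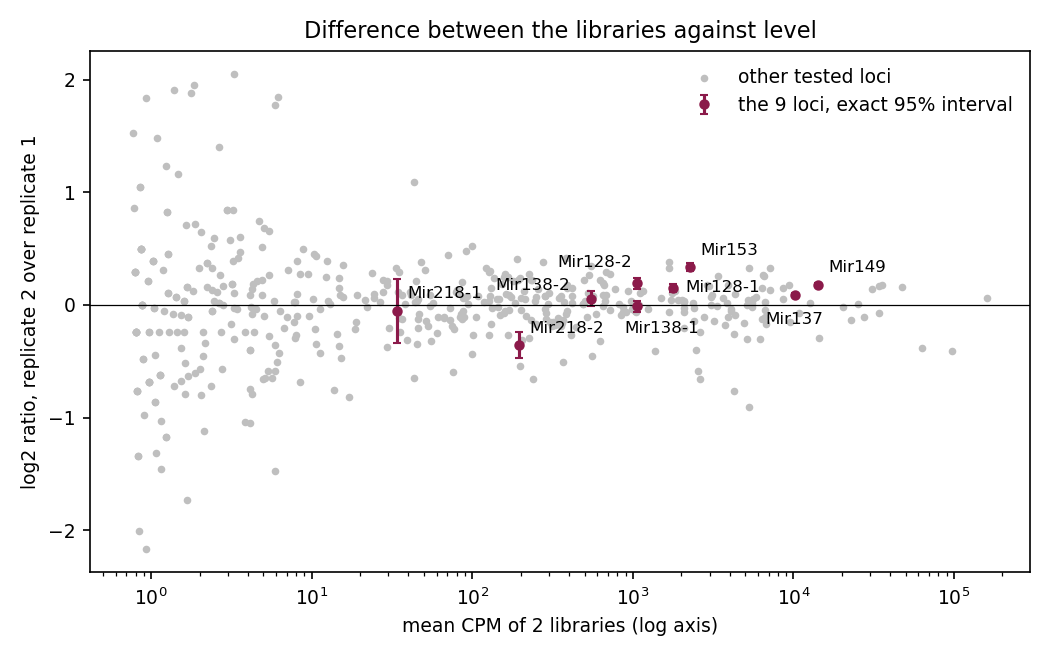
Log2 ratio of replicate 2 over replicate 1 against mean CPM (log axis) for the 9 loci (red, exact 95% intervals) and the other tested loci (grey). Mir153 at 0.33 and Mir218-2 at -0.36 lie farthest from 0 among the 9. Whether they stand apart from grey points of like level was not tested.

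The ratios of the 9 loci were then set beside the spread of all loci. For the 282 loci that reached 100 counts in both libraries, log2 ratios had an SD of 0.22. Mir153 at 0.33 and Mir218-2 at -0.36 lay farther from 0 than this SD, and the other 7 lay closer. With the common dispersion of edgeR, which corresponded to a coefficient of variation of 10.8% between the 2 libraries, its exact test called 0 of the 9 loci and 7 of the 498, or 1.41%. None of the 9 had an unadjusted p under 0.05 in that test, and the lowest was 0.122, for Mir218-2, with an adjusted p of 1. Any true difference between the libraries raises this dispersion, since it rests on them alone.

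Other neuronal microRNAs were described from a list of 19, of which 18 had a row and were tested. Of these, 6 (Mir9-2, Mir9-3, Mir7-1, Mir7-2, Mir129-1 and Mir129-2) have an arm that another hairpin also encodes, so their levels are uncertain in the same way. Mir383 and the 3 Mir124a loci had no entry in the sequence table under these names and were not checked for copies. All 18 had counts in both libraries, and together they held 0.542% of microRNA counts in replicate 1 and 0.578% in replicate 2, with reads that map to several places left out. The 3 highest in counts assigned to a locus were Mir134, which like miR-138 acts on dendritic spines, with 1033 ± 7.07 CPM, Mir7b with 968 ± 37.7 CPM and the activity-regulated Mir132 with 930 ± 74.9 CPM (SD, n = 2). The Mir124a loci had means of 7.75, 3.13 and 1.03 CPM, and Mir9-2 had 1.52 CPM. How many reads of these loci are unassigned was not tested, so this order is not one of microRNA levels in the tissue. By the binomial test 5 of the 18 were higher in replicate 2, 1 was lower and 12 did not pass, so 6 were called. The test called 32.5% of all tested loci, but that rate depends on counts, as given above, and is not matched to the level of the 18. The median log2 ratio of the 18 was 0.04. With the common dispersion of edgeR 0 of the 18 were called, and 1 had an unadjusted p under 0.05. The 5 were Mir132 (log2 ratio 0.12), Mir129-2 (0.41), Mir488 (0.25), Mir592 (0.29) and Mir873a (0.48), and the 1 was Mir9-3 (-0.10). Mir132 was named by rule and the other 5 because of their values. The levels of the Mir124a loci and Mir9-2 were given outside the rule too.

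Markers of other cells in the dissected tissue are given with the calls of the same binomial test, which over all tested loci called 17.5% higher and 15.1% lower. Those rates depend on counts, as given above, and are not matched to the level of the markers. With the common dispersion of edgeR, 1 choroid plexus locus (Mir1298) and 1 blood locus (Mir144) were called. In the other lists 0 were called, and 0 had an unadjusted p under 0.05. In bulk tissue, fewer cells of a type and less RNA per cell cannot be told apart. Of 9 microRNAs of the clusters active in proliferating cells, led by Mir17, Mir106b and Mir93, 6 were lower in replicate 2, 0 were higher and 3 did not pass, and their summed share went from 4.03% to 3.53%. An arm of 2 of these 9 loci, both among those that did not pass, is also encoded by another hairpin, so their levels are uncertain. Of 4 choroid plexus microRNAs, 3 were lower (Mir1298, log2 ratio -0.76, Mir448, -0.46, and Mir204, -0.40) and Mir211 did not pass, with a summed share of 0.867% and 0.584%. Of 5 measured blood microRNAs 3 were higher (Mir144, log2 ratio 1.09, Mir451a, 0.38, and Mir150, 0.30). The other 2 did not pass, Mir223 of myeloid cells with 0.06 (-0.06 to 0.17) and Mir486, of red cells like Mir144 and Mir451a, with -0.47 (-0.90 to -0.04). The summed share of the 5 was 0.0587% and 0.0740%.

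Of 6 tested vascular and mesenchymal microRNAs, led by Mir126a, Mir143 and Mir140, 3 were higher, 1 was lower (Mir214, log2 ratio -0.30) and 2 did not pass. The summed share of the 7 loci with a row, 1 of them not tested, was 4.28% and 4.84%. An arm of 2 of these 7 is also encoded by another hairpin. The oligodendrocyte loci Mir219a-2 (log2 ratio -0.24) and Mir338 (0.15) moved in opposite directions and Mir219a-1 did not pass, with a summed share of 0.334% and 0.304%; the 2 Mir219a hairpins share an arm. The muscle microRNA Mir1a-1 had 0 counts in both libraries, Mir133b had 3 and 1, and Mir206 had 87 and 108 and did not pass. Mir1a-1 had no entry in the sequence table under this name and was not checked for copies. Its 0 counts therefore do not show that its mature strand is absent. The part of these cell types in the differences at the 9 neuronal loci was not tested. Mir144, Mir486, Mir211 and Mir214 too were named because of their values. No list here separates hindbrain from other brain regions.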

How the data were processed

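The authors deposited raw read counts per microRNA locus for each library, with a column for both strands and 1 for each strand; reads mapping to several places stand in a row of their own. Build mm10 and annotation M4 are per the file lists deposited with the tables. The aligner and the counter: not given in the sources used here. The strand column with 98.0% and 97.8% of locus counts was used. Rows naming no locus held 50.6% and 53.5% of reads and were left out of library sizes. GENCODE M21 (GRCm38) gave symbols for 1894 of 1973 loci, and RefSeq gave hairpins and mature strands. TMM factors were 0.985 and 1.01 (edgeR). The binomial test was run on counts simulated with counting error only, which leaves out any spread between libraries. DESeq2 size factors, upper quartile, library totals, other count minimums, both strands, another denominator, summed pairs and single libraries were alternatives. With 1 library a side, no quasi-likelihood test could be fitted. Members and lists were chosen with earlier results of these data known. Named genes were the 9 members, the 3 highest loci of each list, the 2 loci nearest in level to each member and loci sharing a seed. Others were named outside this rule, and those named because of their values are marked in the text. Tools were edgeR 4.0.16 and DESeq2 1.42.0 in R 4.3.3, and scipy 1.17.1, pandas 2.3.3, numpy 2.4.6 and matplotlib 3.10.9 in Python 3.11.15. Mir9-1, Mir142a and Mir1a-2 were not analysed here.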

Additional observations from a re-analysis of the deposited data

How the results depend on the processing

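With all reads of the table as denominator, the 9 loci held 1.5004% instead of 3.14%. With the 10 most abundant loci left out of the total, every level rose, to 32017 CPM for Mir149, 22832 CPM for Mir137 and 76.0 CPM for Mir218-1. The exact test of edgeR with its common dispersion called 0 of the 9 loci, where the binomial test called 6. With library totals Mir138-1 turned from a log2 ratio of -0.01 to 0.032, because that scaling lifts all ratios. Library totals called 7 of the 9, and DESeq2 size factors, upper quartile scaling, no filter, a summed count of at least 100 and both strands each called 6, as 5 higher and 1 lower. The median log2 ratio ran from 0.08 to 0.13 over these settings. Without 1 replicate the share was 2.93% or 3.35%, and ratios between libraries could not be computed. With copies summed, levels were 2839 CPM for the Mir128 pair, 1616 CPM for the Mir138 pair and 229 CPM for the Mir218 pair. Shared windows of 18 bases were 5 to 7 in the hairpins of the pairs and 0 in the other 3. No paired analysis was possible because there is 1 group. Depth limits Mir218-1, with 198 and 225 counts.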
